A study of Mus musculus with 6 samples.

Results

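Hair shaft keratins, the keratin-associated proteins that embed them, and a few genes of hair shaft formation were followed in day 3 skin wounds of FoxO1 +/- and wild-type (WT) mice. A gene was taken if its symbol began with Krtap, if it was one of the hair shaft, inner root sheath or companion layer keratins Krt25 to Krt28, Krt31 to Krt35, Krt71 to Krt75 or Krt81 to Krt86, or if it was Tchh, Padi3, Hoxc13, Foxn1, Msx2 or Dlx3. The gene table held 82 such symbols, and 75 of them had a probe on the array, 90 probes in all. Of these 75 genes, 54 passed the filter on dim probes and are called measured here, out of 16411 genes measured in total. Of the 54, 40 exceeded background clearly on each of the 6 arrays, and the other 14 on all 3 WT arrays and on 1 or 2 FoxO1 +/- arrays. Krt83 had no matched probe, and Krt85 was not analysed here.

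The series holds 6 arrays, 3 from FoxO1 +/- and 3 from WT wounds, each taken as 1 animal. All animals were male and of the strain given as C57/BL6. The FoxO1 +/- mice carry 1 disrupted copy of the forkhead transcription factor gene Foxo1, and the sources used here do not say how it was disrupted or whether it acts in all cells. Every mouse received 4 full-thickness wounds from a 4 mm punch in shaved back skin, and 6 mm pieces were taken 3 days after injury, so a piece holds the wound and the skin around it with any follicles in it. How the pieces of a mouse were pooled is not given, and a p-value here reflects only how far these arrays scatter. Keratinocyte and dermal markers of skin (Krt14, Krt5, Krt1, Krt10, Col1a1 and Col3a1) had a probe well above background on all 6 arrays. Levels are log2 signals relative to the 75th percentile of an array, so 1 unit is 1 doubling, and a level below 0 lies under that percentile. The share of spots well above background was 71.3%, 70.1% and 64.3% on FoxO1 +/- replicates 1, 2 and 3, and 71.8%, 71.9% and 71.3% on the WT arrays. Foxo1 itself, on the probe A_52_P453884, was at 0.38, 0.50 and 0.30 in FoxO1 +/- wounds and at 1.31, 1.04 and 1.51 in WT wounds. The 2 groups did not overlap, with a difference of -0.89 (SE 0.14, limma adjusted p 0.187 over all kept probes, from a linear model with moderated variances and Benjamini-Hochberg adjustment). On its other probe, A_51_P138044, the difference was -0.48 (SE 0.15, limma adjusted p 0.548). Where either probe lies relative to the disrupted part is not given.

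A hair shaft is built in the lower follicle from dividing matrix cells. Their descendants fill with paired type I and type II hair keratins, which are cross-linked by small keratin-associated proteins (KAPs) rich in cysteine or in glycine and tyrosine, while the inner root sheath moulds the shaft with its own keratins and trichohyalin. The genes are strongly tied to the growth phase of the hair cycle, called anagen, and are largely silent in resting follicles. The homeobox factor Hoxc13 and the forkhead factor Foxn1, which is lost in nude mice, are needed to make a normal shaft.

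Most of these genes lie in clusters. Of the 75 genes with a probe, 32 lie on chromosome 11 (type I keratins and several KAP families), 22 on chromosome 16, 10 on chromosome 15 (mostly type II keratins), 5 on chromosome 7 and 3 on chromosome 10. RefSeq promoter windows of 300 bases, from 250 bases before the annotated start to 50 after it (build GRCm38.p6), were given for 63 of the 75. The windows below were chosen after the values were seen, and show the promoter letters of genes that stood high and of 1 that did not. They belong to a member with a large excess on 1 WT array, described further on, from each of 5 groups (inner root sheath keratins, type I hair keratins, and glycine-tyrosine, cysteine and very high cysteine KAPs). The last one is that of Krtap19-4, which had the smallest excess of the 54 measured genes. They are printed 5′ to 3′ on the gene's strand, and capitals mark TATAAA, 1 form of the TATA box letters, on either strand.
Krt71, chr15:101743048-101743347, minus strand: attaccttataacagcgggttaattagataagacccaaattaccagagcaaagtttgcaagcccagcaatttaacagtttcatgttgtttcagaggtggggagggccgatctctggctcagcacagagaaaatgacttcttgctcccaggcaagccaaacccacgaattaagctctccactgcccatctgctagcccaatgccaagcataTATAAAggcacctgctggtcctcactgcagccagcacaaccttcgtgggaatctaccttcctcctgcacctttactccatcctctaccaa
Krt33b, chr11:100029819-100030118, minus strand: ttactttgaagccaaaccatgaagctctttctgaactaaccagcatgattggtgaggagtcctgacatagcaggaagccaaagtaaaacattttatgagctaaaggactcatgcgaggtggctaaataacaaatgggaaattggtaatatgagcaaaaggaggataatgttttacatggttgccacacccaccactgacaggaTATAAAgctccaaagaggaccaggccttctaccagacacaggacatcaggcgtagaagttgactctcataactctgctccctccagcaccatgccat
Krtap22-2, chr16:89010710-89011009, minus strand: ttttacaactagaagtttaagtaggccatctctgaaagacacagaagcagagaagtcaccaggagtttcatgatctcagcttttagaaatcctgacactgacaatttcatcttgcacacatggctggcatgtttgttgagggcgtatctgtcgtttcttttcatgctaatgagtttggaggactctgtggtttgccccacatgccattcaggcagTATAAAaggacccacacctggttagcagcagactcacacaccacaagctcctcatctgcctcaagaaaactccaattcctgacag
Krtap3-1, chr11:99566581-99566880, minus strand: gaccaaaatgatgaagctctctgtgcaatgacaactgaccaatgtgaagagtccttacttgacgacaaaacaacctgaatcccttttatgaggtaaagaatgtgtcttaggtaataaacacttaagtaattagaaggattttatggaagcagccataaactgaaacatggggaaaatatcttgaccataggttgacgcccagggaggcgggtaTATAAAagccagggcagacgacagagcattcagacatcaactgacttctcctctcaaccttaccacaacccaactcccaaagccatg
Krtap9-3, chr11:99598057-99598356, minus strand: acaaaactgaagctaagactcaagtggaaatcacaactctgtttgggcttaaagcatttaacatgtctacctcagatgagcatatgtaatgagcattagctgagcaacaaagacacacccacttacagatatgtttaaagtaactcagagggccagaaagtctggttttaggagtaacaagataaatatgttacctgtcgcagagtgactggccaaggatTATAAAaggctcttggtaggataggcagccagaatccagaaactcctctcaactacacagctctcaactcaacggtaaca
Krtap19-4, chr16:88885040-88885339, minus strand: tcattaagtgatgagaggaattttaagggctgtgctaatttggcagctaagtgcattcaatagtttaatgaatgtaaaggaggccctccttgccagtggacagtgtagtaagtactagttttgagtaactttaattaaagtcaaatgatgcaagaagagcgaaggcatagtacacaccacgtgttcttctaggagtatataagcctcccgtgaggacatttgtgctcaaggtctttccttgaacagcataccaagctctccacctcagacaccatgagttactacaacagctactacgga

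The letters TATAAA, searched on both strands, were in 49 of the 63 member windows (77.8%), against 13.6% of 32851 windows of all genes. In 35 of the 63 (55.6%) its first base lay 40 to 25 bases before the start on the gene's own strand, against 1.91% of all windows. Krt71, Krtap22-2, Krtap9-3 and Krtap3-1 each had it there, at positions -40, -35, -30 and -37 from the start. In Krt33b it began at position -47, and the Krtap19-4 window held no TATAAA. That window did hold TATATAAG, a close variant that this search does not count. The forkhead letters GTAAACA, on both strands, were in 4 of the 63 member windows (6.35%) and in 3.65% of all. A Hoxc13-type motif, TTAATN or TTTATN followed by 2 purines on either strand, was in 34 of the 63 (53.97%) against 18.9% of all. It can overlap TATAAA, and outside TATAAA it was in 28 of 63 (44.4%) against 16.1%. These are matches of letters in a window, and binding was not measured.

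The plainest feature of the hair shaft genes was 1 array. On WT replicate 1 they stood far above the other 5 arrays, and among those 5 the genotypes lay close together. With each gene centred on its mean over the 6 arrays, the 54 measured genes averaged -0.43, -0.54 and -0.44 on FoxO1 +/- replicates 1, 2 and 3, and 2.27, -0.46 and -0.40 on WT replicates 1, 2 and 3. All 3 FoxO1 +/- arrays and the other WT arrays lay within a narrow band, and WT replicate 1 lay far over it. Of the 54 genes, 46 (85.2%) had their highest level on that array, against 17.2% of all 16411 genes. Its excess, the level on WT replicate 1 minus the median of the other 5 arrays, had a median of 2.02 over the 54 genes, or 4.05-fold, and one of 0.0030 over all genes. An excess of at least 2-fold was found in 38 of the 54 genes (70.4%), against 0.969% of all genes. Of the 40 members well above background on every array, 25 had one. The other measured members passed the filter through the WT arrays, which include WT replicate 1, so their excess is in part set by the filter. Of the 25 measured genes with an excess of at least 8-fold, 19 were hair shaft genes, some of which passed the filter only through the WT arrays. The array was singled out for its high mean over these genes, so the excess is a description and was not tested.

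**Figure D1:**
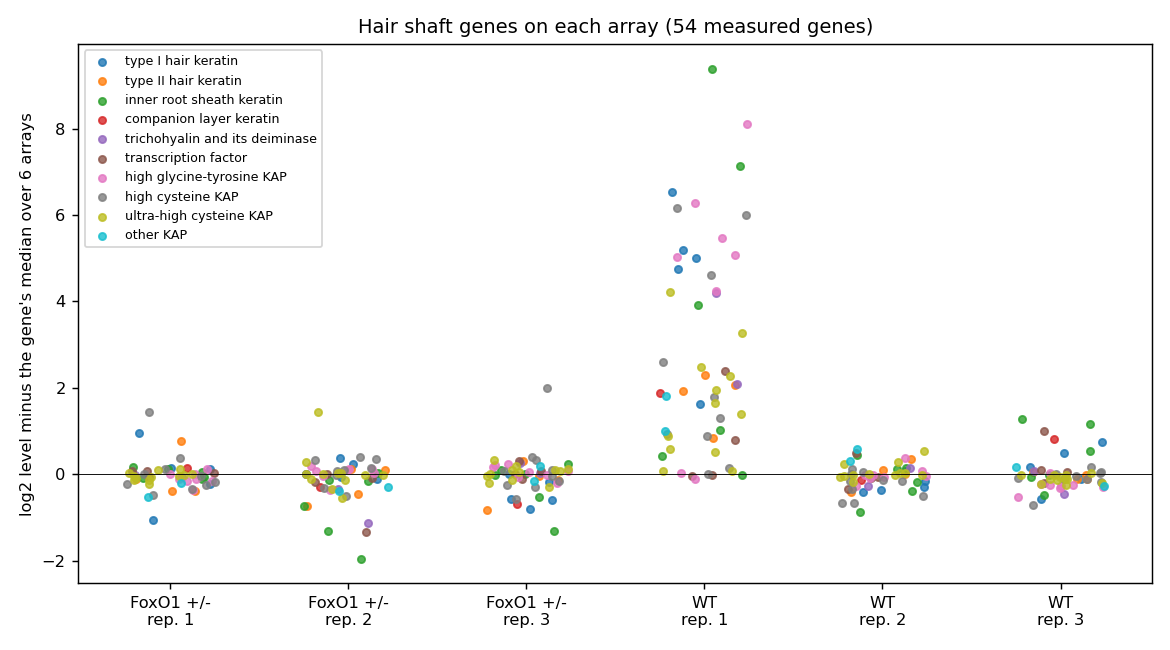
Level of each of the 54 measured hair shaft genes on each array (y axis, log2 level minus the gene's median over the 6 arrays), with the 3 FoxO1 +/- arrays to the left of the 3 WT arrays and 1 point per gene coloured by group. The points of WT replicate 1 reach over 9, while those of the other 5 arrays stay between about -2 and 2.

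An inner root sheath keratin, Krt71, had the largest excess of all 16411 measured genes. Krt71, a type II keratin of all layers of the sheath, was at -4.59, -6.43 and -5.78 in FoxO1 +/- wounds, and at 4.92, -4.35 and -3.30 in WT wounds. Every FoxO1 +/- array lay below every WT array, and WT replicate 1 exceeded the median of the other 5 by 9.51, or 731-fold. It was well above background on 1 of the 3 FoxO1 +/- arrays and on all WT arrays. Krt27, its type I partner class in the sheath, was at -4.23, -5.44 and -4.03 in FoxO1 +/- wounds and at 3.02, -4.51 and -3.60 in WT wounds, an excess of 7.24. Krt28 was at -3.18, -4.08 and -3.89 against 0.57, -3.52 and -2.06 in WT wounds, an excess of 4.09. The groups overlapped for Krt27 and Krt28. Sheath cuticle keratins varied, with an excess of 1.04 for Krt73 and 0.47 for Krt72, while Krt26, below background on the other 5 arrays, was at least 12.2-fold higher on WT replicate 1. Krt74, a sheath keratin of the Huxley layer in human, had an excess of -0.03, so this list did not move as 1 block. Krt75 marks the companion layer around the sheath and had an excess of 2.02, at -4.84, -5.29 and -5.68 in FoxO1 +/- wounds and -3.10, -5.12 and -4.17 in WT wounds.

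Trichohyalin, Tchh, the cross-linked protein of the sheath and the medulla, was at -0.57, -1.63 and -0.26 in FoxO1 +/- wounds and at 3.69, -0.79 and -0.44 in WT wounds. Padi3, the enzyme that deiminates trichohyalin, was at -2.45, -2.78 and -2.40 in FoxO1 +/- wounds and at -0.33, -2.28 and -2.88 in WT wounds. Both were highest on WT replicate 1, and the other 2 WT arrays lay within the range of the FoxO1 +/- arrays for Tchh and on either side of it for Padi3.

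All 5 measured type I hair keratins were highest on WT replicate 1, by 1.70 to 6.65. Krt33a, of the shaft cortex, was at -4.90, -5.14 and -5.82 in FoxO1 +/- wounds and at 1.51, -5.43 and -4.52 in WT wounds. Krt35, which appears early in the matrix and cortex and was well above background on 1 FoxO1 +/- array, was at -6.13, -5.07 and -5.07 in FoxO1 +/- wounds and at 0.12, -5.37 and -4.33 in WT wounds. The 2 genotypes overlapped for both. The cortex keratins Krt33b and Krt34 had excesses of 5.38 and 4.91, and Krt31 one of 1.70. Type II hair keratins had a smaller excess of 0.95 to 2.40. Krt86, of the cortex, was at -1.40, -0.89 and -1.14 in FoxO1 +/- wounds and at 1.29, -0.64 and -1.11 in WT wounds. Krt81, also of the cortex, had an excess of 0.95, the cuticle keratin Krt82 one of 1.94, and Krt84, known from tongue papillae in human, one of 2.11.

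The transcription factors split. Hoxc13 was at -3.74, -4.9996 and -3.60 in FoxO1 +/- wounds and at -1.28, -4.02 and -2.67 in WT wounds, an excess of 2.47. Foxn1 was at -3.58, -3.75 and -3.36 in FoxO1 +/- wounds and at -2.87, -3.74 and -3.87 in WT wounds, an excess of 0.88. The homeobox genes Dlx3 and Msx2, which skin also uses outside the shaft, had excesses of -0.02 and -0.09. Dlx3 was at 2.37, 2.34 and 2.34 in FoxO1 +/- wounds and at 2.31, 2.28 and 2.43 in WT wounds. Hoxc13 and Foxn1 were thus highest on WT replicate 1, whereas Dlx3 and Msx2 were not.

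Among the 32 measured KAP genes, 27 were highest on WT replicate 1. The families counted as rich in glycine and tyrosine (Krtap6, 7, 8, 19, 20, 21 and 22) had a median excess of 5.11 over 8 measured genes. Krtap6-1 was at -4.19, -4.28 and -4.52 in FoxO1 +/- wounds and at 3.78, -4.36 and -4.63 in WT wounds, an excess of 8.14 or 281-fold. Krtap21-1 was at -4.57, -4.33 and -4.22 in FoxO1 +/- wounds and at 1.84, -4.72 and -4.98 in WT wounds. For Krtap21-1 the other 2 WT arrays lay below the FoxO1 +/- arrays, and for Krtap6-1 they lay among and below them. Krtap8-1, Krtap20-2 and Krtap6-5 had excesses of 5.48, 5.14 and 4.42. Krtap19-4 showed no excess (-0.12), at 3.39, 3.49 and 3.60 in FoxO1 +/- wounds and 3.28, 3.38 and 3.14 in WT wounds. Its FoxO1 +/- arrays all lay above its WT arrays. These values rest on 1 probe, and whether that probe reports Krtap19-4 alone was not tested.

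The cysteine-rich families of lower cysteine content (Krtap1, 2, 3, 10 to 15, 24 and 26) had a median excess of 1.61 over 10 measured genes. Krtap3-1 was at -3.97, -5.90 and -5.66 in FoxO1 +/- wounds and at 0.77, -5.57 and -5.24 in WT wounds. It was well above background on 1 FoxO1 +/- array and on the 3 WT arrays, so WT replicate 1 was at least 64.2-fold higher than the median of the other 5. Krtap1-5 had an excess of 6.12, Krtap3-3 one of 4.68, Krtap26-1 one of 2.64, Krtap3-2 one of 1.34 and Krtap1-4 one of 1.29. Krtap10-10 and Krtap10-4, of chromosome 10 and named after their values were seen, had excesses of -0.012 and 0.28. Families of very high cysteine content (Krtap4, 5, 9 and 17) had a median of 1.54 over 12 measured genes. Krtap4-7 was at -4.89, -3.32 and -4.74 in FoxO1 +/- wounds and at -0.53, -4.77 and -5.001 in WT wounds, an excess of 4.24. Krtap4-1 and Krtap4-9 had excesses of 3.35 and 2.49, Krtap5-2 and Krtap5-1 ones of 1.95 and 0.99, and Krtap5-4 one of 0.08. Krtap16-3, given no class here, had an excess of 2.02.

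Probes of 1 gene did not always tell the same story. The brightest of the 4 kept probes of Krtap5-5 stood for that gene and had an excess of 0.10, while the other kept probes reached 3.83. For Krtap11-1 the excess was 0.89 on the brighter probe and 4.36 on the other. It was 0.99 and 2.25 on the Krtap5-1 probes, and 4.89 to 8.13 on the 3 kept Krtap20-2 probes. KAP genes of a family are close copies, so a probe may report several of them, and which was not tested. Of all 90 probes, kept or not, 87 were well above background on WT replicate 1, against 71.8% of all spots. With every dim array at its bound, explained further on, 69 probes had an excess of at least 2-fold there and 42 one of at least 8-fold. By chromosome, the probes past 2-fold were 30 of 34 on chromosome 11, 23 of 30 on chromosome 16, 7 of 10 on chromosome 15, 6 of 10 on chromosome 7 and 1 of 3 on chromosome 10.

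**Figure D2:**
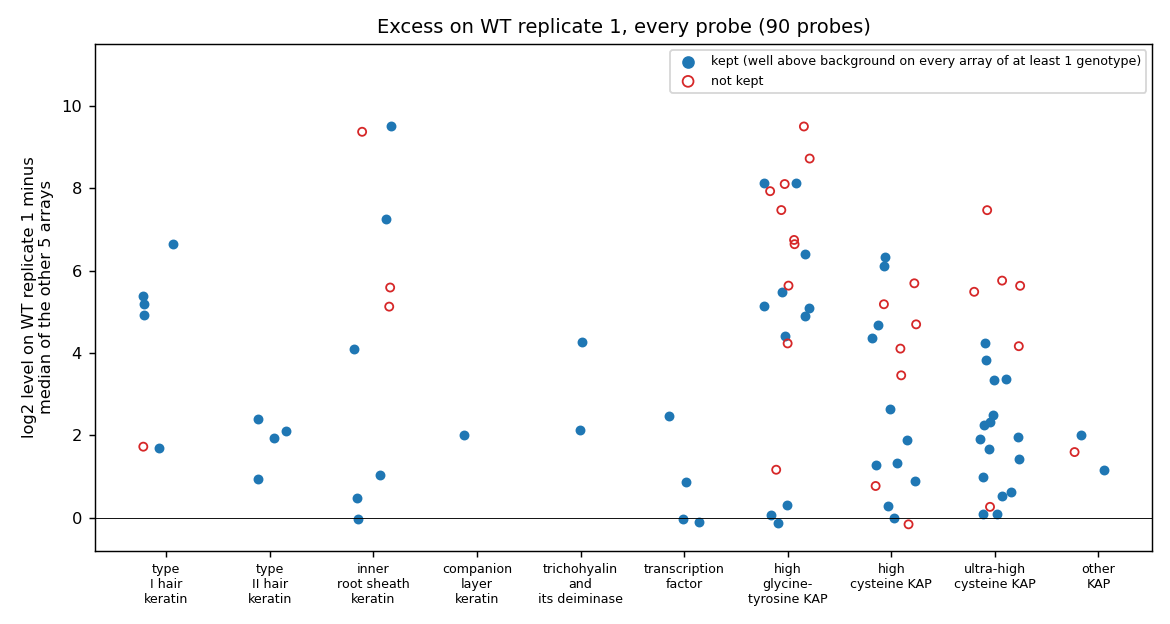
Excess of WT replicate 1 (y axis, its log2 level minus the median of the other 5 arrays) for each of the 90 probes, by gene group on the x axis. Filled points are probes that passed the filter, and open points are probes that did not, many of them at background on the other 5 arrays. Probes below background are drawn at their measured signal, and with such arrays at their bound the group medians are 5.11 over 20 probes of glycine-tyrosine KAPs, 5.05 over 6 of type I hair keratins and 4.09 over 9 of inner root sheath keratins.

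The 21 genes that did not pass the filter are described here with no test. WT replicate 1 was chosen for its high mean over the measured members. The share among all genes that did not pass was not worked out, so the counts of these 21 are not read as a result. A probe had to be well above background on all 3 arrays of a genotype, which a gene seen on 1 array alone cannot meet. Of these 21 genes, 13 were well above background on WT replicate 1 and on no other array. Another 5 were above it on that array and on 1 to 3 others, and 3 (Krtap13, Krtap19-1 and Krtap4-6) on none. For the 13, WT replicate 1 exceeded the median of the other arrays at least 2.24-fold (Krt32, a shaft cuticle keratin) to at least 289.96-fold (Krtap22-2). The bound takes each dim array at its lowest signal called well above background, or at the probe's own signal where that is higher. Krt25, a type I keratin of the inner root sheath, was at least 181-fold higher on that array, Krtap9-3 at least 93.2-fold and Krt26, of the sheath cuticle, at least 12.2-fold. Those named here were chosen after their values were seen. By array, 61, 61 and 50 of the 90 probes were well above background on FoxO1 +/- replicates 1, 2 and 3, and 87, 64 and 67 on WT replicates 1, 2 and 3. Over all spots the shares were 71.3%, 70.1% and 64.3%, and 71.8%, 71.9% and 71.3%, in the same order.

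Set by genotype over all 6 arrays, 47 of the 54 measured genes had lower and 7 had higher values in FoxO1 +/- wounds. Their median log2 difference was -0.79, against 0.012 over all genes, and -0.46 with normexp background correction. None passed limma's test at an adjusted p of 0.05 over all genes (background 0.00609%), and the smallest adjusted p among them was 0.642. At an unadjusted p under 0.05, 1 member was lower and 0 were higher, against 2.81% and 3.48% of all genes, so the members did not exceed that background. Groups did not overlap for 3 lower members and 1 higher member of the 54, against 4.55% and 7% of all genes. The difference was -2.59 for Krtap6-1 (SE 2.24) and -1.46 for Hoxc13 (SE 0.74). Among the 40 genes well above background on every array, 35 were lower and 5 higher, with a median of -0.54, and groups did not overlap for 2 lower and 1 higher gene. The other 14 passed the filter through the WT arrays, so their direction is in part set by the filter. Krt71 is one of them, and its difference of -4.69 is given with no test.

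Without WT replicate 1 the direction was gone. That array was chosen for its high mean over these genes and is a WT array. Leaving it out must therefore raise the members' mean FoxO1 +/- minus WT difference, so the shift is a description and no separate finding. In the remaining 3 FoxO1 +/- and 2 WT arrays, 28 members had lower and 26 had higher values in FoxO1 +/- wounds. Their median difference was -0.0063, against 0.017 over all genes. No member passed an adjusted p of 0.05 in limma, nor did any measured gene (background 0%), and the smallest adjusted p among members was 0.781. At an unadjusted p under 0.05, 2 members were lower (background 2.41%) and 1 was higher (3.17%). Of the 2 lower, Krt71 passed the filter only through the WT arrays, so its place among them is in part set by the filter. Groups did not overlap for 3 lower and 4 higher members of the 54, against 8.02% and 13.4% of all genes. Among the 40 genes well above background on every array, 20 were lower and 20 higher, with a median of 0.0039. Groups did not overlap for 2 lower and 4 higher of these 40, against the same shares of all genes. Within all 54 members, KAP genes had 12 lower and 20 higher values, with a median of 0.12. Keratins had 12 lower and 4 higher values, with a median of -0.23. Krt27, Krt33a, Krt34, Krt35, Krt71, Krt75 and Krt82, all lower here, passed the filter only through the WT arrays, as did Krt74, which was higher. The direction of these keratins is thus in part set by the filter, and some KAP genes passed in the same way. That the KAPs and the keratins part in this way was not tested. Some genes turned from lower to higher in FoxO1 +/- wounds, such as Krt33b (-1.10 with and 0.72 without that array), Krtap6-1 (-2.59 and 0.16) and Krtap21-1 (-1.75 and 0.48).

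**Figure D3:**
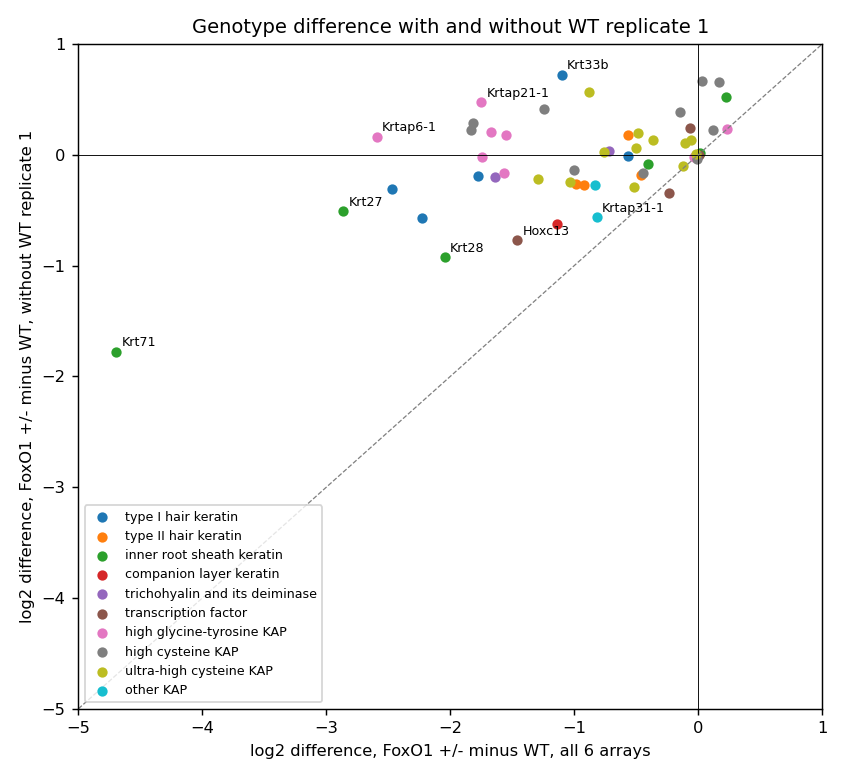
Log2 difference, FoxO1 +/- minus WT, of the 54 measured genes with all 6 arrays (x axis) and without WT replicate 1 (y axis), 1 point per gene, with equal values on the dashed line. Points spread down to -4.69 along the x axis and gather around 0 on the y axis, where the members' median is -0.0063, and Krt71 stays lowest at -1.78.

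Of the 54 genes, 33 kept their direction without WT replicate 1 and 21 turned, counts that are in part set by the choice of that array. Groups stayed apart both times for Krtap31-1, Krt71, Krtap11-1 and Krtap19-4. Krtap31-1, a KAP gene of chromosome 11, was at -4.95, -4.73 and -4.58 in FoxO1 +/- wounds and at -3.42, -4.11 and -4.27 in WT wounds. All its FoxO1 +/- arrays lay below all WT arrays, with a difference of -0.82 (SE 0.24, unadjusted p 0.0128, limma adjusted p 0.642). Without WT replicate 1 it was -0.56 (SE 0.14, limma adjusted p 0.781). Krt71 differed by -1.78 without that array, with 2 of its 3 FoxO1 +/- values not well above background. It passed the filter only through the WT arrays, so its separation is in part set by the filter. Krtap11-1 was at -0.09, 0.12 and -0.04 in FoxO1 +/- wounds and at 1.01, 0.14 and 0.18 in WT wounds, a difference of -0.44 (SE 0.24, limma adjusted p 0.857). That separation rests on a small gap between FoxO1 +/- replicate 2 and WT replicate 2. The groups overlapped on the other kept Krtap11-1 probe. It was at -5.48, -5.25 and -5.14 in FoxO1 +/- wounds and at -0.90, -4.65 and -5.33 in WT wounds. Krtap19-4 differed by 0.23 with all arrays (SE 0.10, limma adjusted p 0.801), and leaving out WT replicate 1 gave 0.24. An exact test of 3 against 3 arrays cannot give a two-sided p under 0.1, and none of these passed the adjustment over all genes.

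Among the 5 arrays other than WT replicate 1, the members spread by 0.094 to 3.13, with a median range of 0.76. Over the 54 members, FoxO1 +/- replicates 1, 2 and 3 were highest of the 5 for 8, 10 and 14 genes, and WT replicates 2 and 3 for 12 and 10. Over all genes the shares were 13.6%, 20.8% and 25.3% for the FoxO1 +/- arrays and 24.8% and 15.5% for the WT arrays, so the members' counts lay near that background. Within the 10 genes of the inner root sheath, companion layer, Tchh, Padi3 and Hoxc13, FoxO1 +/- replicate 2 was lowest for 5 and WT replicate 3 highest for 5, against 15.3% and 15.5% of all genes. Krt27, Krt71, Krt74 and Krt75 of these 10 passed the filter only through the WT arrays, so both counts are in part set by the filter. In Krt71, Krt28, Krt75 and Hoxc13 the level on WT replicate 3 was between those of WT replicate 1 and of the other 4 arrays. That grouping was made after the values were seen. In a bulk sample, fewer cells of a type and less RNA per cell cannot be told apart, so these levels do not say whether more follicles or more active follicles were in a piece.

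Other genes of the follicle were listed by their place in it. No gene of the follicle lists below passed an adjusted p of 0.05 in limma over all 6 arrays or without WT replicate 1. Of the genes named from these lists, 2 did pass in the fit without WT replicate 2. Of 20 measured other shaft and follicle differentiation genes, 11 were lower and 9 higher in FoxO1 +/- wounds, with a median difference of -0.04. Prr9 was at 1.38, 0.17 and 0.71 in FoxO1 +/- wounds and at 3.68, 0.59 and 0.70 in WT wounds, an excess of 2.98 on WT replicate 1. Tchhl1, a relative of trichohyalin, had an excess of 2.96, and Tgm3, a cross-linking transglutaminase, and Mt4, a metallothionein, had excesses of 0.18 and -0.50. Of 28 measured matrix and hair-cycle regulators, 22 were lower and 6 higher, with a median of -0.17. Their median excess was 0.35. The homeobox gene Dlx2 had an excess of 2.66 and Fgf5, the growth factor that ends anagen, one of 1.70. Sostdc1 was at -0.64, -0.41 and -0.67 in FoxO1 +/- wounds and at 0.47, 0.09 and 0.84 in WT wounds, with WT replicate 3 highest. Its groups did not overlap, with a difference of -1.04 (SE 0.20, limma adjusted p 0.371), the same without WT replicate 1. Notch1, a receptor, differed by 0.99 (SE 0.20, limma adjusted p 0.415) and was lowest on WT replicate 1.

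Bulge and outer root sheath genes, 15 lower and 5 higher of 20, had a median difference of -0.13 and a median excess of 0.27. Lhx2, a stem cell homeobox gene, was at -1.50, -1.79 and -1.68 in FoxO1 +/- wounds and at 0.70, -1.41 and 0.42 in WT wounds. Tbx1 had an excess of 2.04 and Lrig1 one of 0.20. Lhx2 and Tbx1 were both higher on WT replicates 1 and 3 than on the other 4 arrays. Dermal papilla genes, 12 lower and 7 higher of 19, had a median difference of -0.07, with Rspo4 at -0.78 (SE 0.33), Wif1 at -0.65 (SE 0.29), Rspo3 at 0.28 (SE 0.11) and Lepr at 0.21 (SE 0.08). Of these, Rspo4 had the largest excess, 1.30. Melanocyte genes, 5 lower and 6 higher of 11, had a median of 0.02. Dct, Pmel and Tyrp1, pigment genes named for their p or excess, differed by -1.01 (SE 0.42), -0.96 (SE 0.32) and -1.06 (SE 0.41). Each was highest on WT replicate 3, not on WT replicate 1. They are among the 5 lower genes, and the 6 higher genes of that list went the other way. Sebaceous gland genes, 14 lower and 5 higher of 19, had a median of -0.31, with Elovl3 at -1.41 (SE 0.27), Krt79 at -1.38 (SE 0.28) and Awat2 at -1.03 (SE 0.44).

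**Figure D4:**
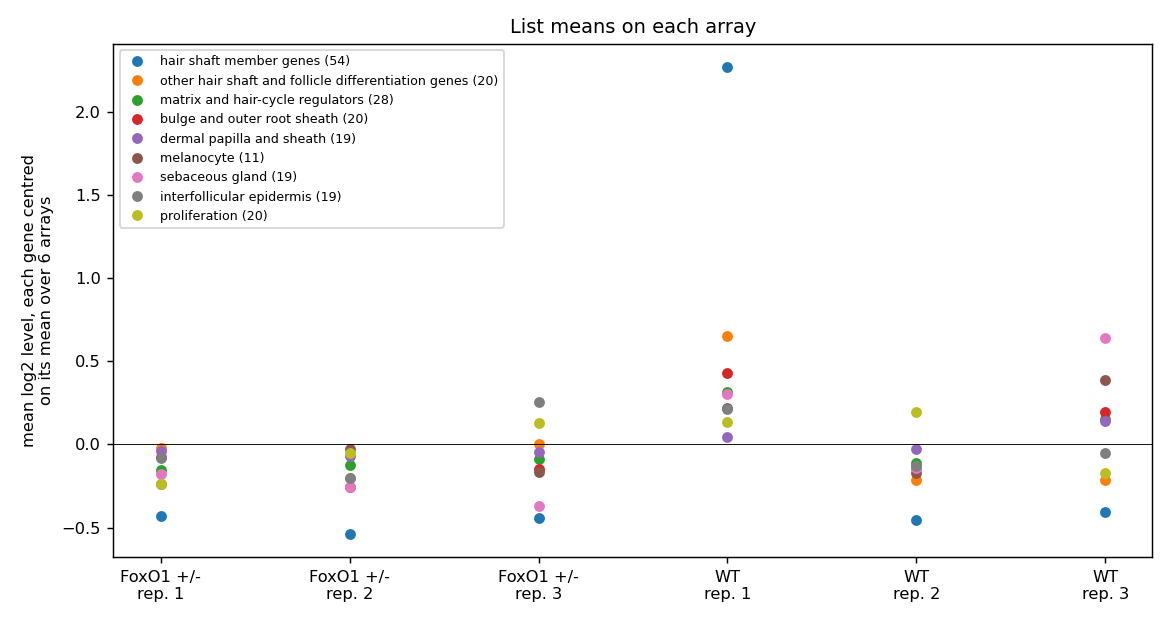
Mean level of each gene list on each array (y axis, log2, each gene centred on its mean over the 6 arrays), with FoxO1 +/- arrays to the left of WT arrays and the number of measured genes in brackets. The hair shaft genes reach 2.27 on WT replicate 1, where the next list, other shaft and follicle genes, reaches 0.65, and the sebaceous gland list is highest on WT replicate 3 at 0.64.

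Lists of other cell types had a smaller median excess on WT replicate 1 than the hair shaft genes. The gene-centred mean of 19 interfollicular epidermis genes was -0.08, -0.20 and 0.26 on FoxO1 +/- replicates 1, 2 and 3 and 0.21, -0.13 and -0.05 on WT replicates 1, 2 and 3. That of 20 proliferation genes was -0.24, -0.05 and 0.13 on the FoxO1 +/- arrays and 0.14, 0.20 and -0.17 on the WT arrays. The median excess was 0.28 for the epidermis list, 0.14 for proliferation, -0.05 for fibroblast, -0.12 for adipocyte, -0.23 for skeletal muscle and -0.25 for macrophage and neutrophil genes. None of the 19 epidermis or 20 proliferation genes had an excess of 2-fold. Of the epidermis genes, 47.4% were highest on WT replicate 1, against 17.2% of all genes. The mean of 14 macrophage and neutrophil genes was 0.063, 0.0043 and 0.21 on the FoxO1 +/- arrays and -0.38, 0.19 and -0.085 on the WT arrays, lowest on WT replicate 1. Adipocyte genes were higher in FoxO1 +/- wounds for 12 of 12 genes, with a median difference of 0.70, and none passed an adjusted p of 0.05 in limma. Any part of these lists in the hair shaft values was not tested.

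Outside all lists, the 12 named genes with the largest excess on WT replicate 1 included 2 further keratins. Krt90 was at -6.24, -5.88 and -5.05 in FoxO1 +/- wounds and at -1.58, -5.70 and -4.37 in WT wounds, an excess of 4.12. Krt87 had an excess of 3.14. The others were the olfactory receptor gene Olfr1134 (3.56), the glutathione peroxidase gene Gpx2 (3.00), Gsdma2 (2.67), Hamp2 (2.66), the amino acid transporter gene Slc38a5 (2.64), the homeobox gene Hoxa10 (2.61), Umodl1 (2.44), Sprr4 (2.38), Crnn (2.37) and the endothelin gene Edn2 (2.31). Hoxa10 was at -4.60, -3.46 and -1.69 in FoxO1 +/- wounds and at -1.70, -4.31 and -4.49 in WT wounds, so FoxO1 +/- replicate 3 was as high as WT replicate 1.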

How the data were processed

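RNA of 6 wound samples was labelled with Cy3 (input 200 ng per array, per the labels' protocols) and hybridised to 1-colour arrays on 1 slide, read in 1 scan. The authors' deposited scanner files give linear intensity values per spot, extracted with Agilent Feature Extraction 10.7.1.1 per the file headers (9.1 per the submitters' processing notes). The file headers record background subtraction and spatial detrending inside each array, and flags (outlier, saturated, well above background) were used as deposited. The authors' value table holds the same intensity values, linear, not centred, rounded to within 0.497%, with medians over non-control spots of 118, 118 and 101 for FoxO1 +/- and 122, 127 and 137 for WT.

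Outlier spots were left out, log2 signals averaged per probe, and each array's 75th percentile subtracted. Of 55681 probes, 26582 got a symbol from RefSeq accessions (GRCm38.p6 names, while the array's build is mm9, so no gene coordinates were taken). A probe was kept if all arrays of 1 genotype or the other had it well above background, and the brightest probe stood for each of 16411 genes. FoxO1 +/- minus WT was tested with limma 3.58.1 in R 4.3.3 (two-sided, Benjamini-Hochberg), and the code was checked on simulated data. No spot was saturated. Precision is limited by 3 arrays per genotype.

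The members and lists were chosen with earlier results of these data known. Named were all measured members outside the KAPs, and per KAP group the 3 with the smallest p, the 3 with the smallest p without WT replicate 1 and the 3 with the largest excess. Per follicle list 2 were named by p and 2 by excess, and the 12 genes of no list by excess, passing over clone and predicted names. Lists of other cell types are given as lists only. KAPs were grouped by family number from textbook knowledge, since protein sequences were not used here. Alternatives were normexp background correction (on median signals, offset 50), quantile scaling, no dim filter, the mean of probes, the value table, slide row, the replicate number and leaving out each array. Bounds for dim arrays and the members above background on all 6 arrays were added after seeing the data. The replicate numbers were not taken as pairs in the main test. Deviations from group means correlated at -0.068, -0.14 and -0.30 for the numbers 1, 2 and 3. With 3 arrays per group these values cannot show whether the numbers pair the samples.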

Additional observations from a re-analysis of the deposited data

How the results depend on the processing

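The count of hair shaft genes past the adjusted threshold was 0 with and without WT replicate 1 and under every alternative run, including each kept probe tested separately (0 of 62), an alternative chosen after seeing the data. The median difference ran from -1.17 to -0.0063 over the fits that omit 1 array, the value nearest 0 being that without WT replicate 1. It was -0.46 with normexp correction, -0.80 with quantile scaling, -0.92 over 75 genes without a dim filter, and -0.67 with slide row as a block or in slide row 1 alone, where FoxO1 +/- replicate 1 stands against 3 WT arrays. With the replicate block it was -0.79, and no hair shaft gene passed. Leaving out single arrays gave 3 to 11 lower and 1 to 4 higher members with non-overlapping groups, counts that fewer arrays raise by themselves, as does slide row 1 (16 lower), and normexp gave 0 higher. There were 8, 9 and 6 lower without FoxO1 +/- replicates 1, 2 and 3, 10 without WT replicate 2 and 11 without WT replicate 3. For these fits and for slide row 1 the share over all genes was not worked out. Their counts are therefore not read as a result about the members.

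Genes called over the whole array numbered 0 with normexp, 2 with quantile scaling, 3 without the filter, 7 with the row block, 4 in row 1, 0 with the replicate block, and 0 to 30 without single arrays (30 without WT replicate 2). Of 43 named members, 14 changed direction without WT replicate 1, and 17 in at least 1 fit that omits an array. Over those fits the ranges were -0.13 to 0.52 for Krt72, -0.21 to 0.24 for Krt74, -0.022 to 0.053 for Dlx3, -0.26 to 0.24 for Foxn1, -1.24 to 0.034 for Padi3, -2.06 to 0.72 for Krt33b, -1.05 to 0.18 for Krt84, -2.97 to 0.29 for Krtap1-5, -0.17 to 0.66 for Krtap1-4, -0.59 to 0.39 for Krtap3-2, -2.94 to 0.23 for Krtap3-1, -2.22 to 0.42 for Krtap3-3, -2.93 to 0.48 for Krtap21-1, -2.64 to 0.20 for Krtap8-1, -4.04 to 0.16 for Krtap6-1, -0.88 to 0.19 for Krtap5-2, -1.67 to 0.57 for Krtap4-7, -1.44 to 0.10 for Prr9, -0.93 to 0.56 for Tchhl1, -0.21 to 0.77 for Fgf5. Directions also turned in other settings, with quantile normalization, -0.014 for Dlx3; with normexp background correction, 0.011 for Foxn1; with slide row as a block, 0.21 for Krt84, -0.32 for Krtap1-4, 0.40 for Tchhl1, -0.64 for Fgf5; with slide row 1 only, 0.21 for Krt84, -0.32 for Krtap1-4, 0.40 for Tchhl1, -0.64 for Fgf5; with mean over the kept probes of a gene, -0.050 for Lepr. The cause was not tested. The number of arrays and, for the 21 genes below the filter, signal near background limit these values.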
